A study of Mus musculus with 6 samples.

Results

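The expression of 7 genes was examined in alveolar organoids: the claudins Cldn3, Cldn4, Cldn7 and Cldn18, the 14-3-3 gene Sfn, the secreted chaperone gene Clu and the galectin gene Lgals3. The 7 genes were chosen by symbol from the 32285 gene rows of the count tables, and each symbol matched a row in both organoid tables. Several of them are often reported in the transitional state between alveolar type 2 epithelial cells (AEC2s) and type 1 cells (AEC1s). The levels of all 7 were compared between epithelial barcodes rich in Sftpc, in Hopx or in Krt19, and between organoids grown with normal or fibrogenic fibroblasts.

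AEC2s and fibroblasts (FBs) were grown together as organoids for 2 weeks in Matrigel, and each of the 2 cultures gave 1 droplet single-cell RNA library. In both cultures the AEC2 donors were SpcCreER, tomato+ mice given tamoxifen, so the epithelium began as cells labelled through the surfactant protein C promoter. The FBs were sorted as GFP+ PDGFRa+ cells from PDGFRa-EGFP reporter lungs on day 14 after oropharyngeal aspiration of PBS (normal FBs) or of bleomycin at 2 U/kg (fibrogenic FBs). Cells of each type came from 3 pooled mice, the labels give no age, and the AEC2 donors are given no bleomycin in the labels. With 1 library per condition there was no test between conditions. All intervals below are 95% intervals that cover counting error only, without the variation between mice or cultures. Those of levels and log2 ratios, from summed counts, also leave out the variation between barcodes of a class. A difference between cells of a class cannot be told apart from a difference between cultures or libraries.

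Claudins are transmembrane proteins of the tight junction, and which of them a cell makes sets what passes between cells. In the alveolus Cldn18 is the main claudin of AEC1s and AEC2s, Cldn3 is a sealing claudin that is typical of AEC2s, Cldn4 is known to be induced by lung injury, and Cldn7 is a claudin of many epithelia, also found along the lateral membrane. Sfn encodes stratifin (14-3-3 sigma), an epithelial cell cycle inhibitor and known p53 target, Clu encodes clusterin, and Lgals3 encodes a sugar-binding lectin. An AEC2 that leaves its surfactant program passes through a flat, keratin-rich state before it takes on AEC1 genes such as Hopx and Ager, and Krt19 is among the keratins of that state.

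The sequences next to the start sites of Cldn4 and Sfn, which with Clu separated the classes most, are given first. That of Cldn3, the neighbouring gene of Cldn4, which separated them little, is given beside them. The 250 bases upstream of the annotated start were taken from RefSeq (GRCm38.p6), 5′ to 3′ on the strand of the gene, and windows were found for 6 of the 7 genes, Clu being the exception. Cldn4 lies at chr5:134945123-134946934 on the minus strand and Cldn3 at chr5:134986214-134987476 on the plus strand. The start sites point away from each other, 39279 bases separate the 2 genes, and 0 annotated genes lie wholly between them. Sfn lies at chr4:133600556-133602168 on the minus strand. The upstream windows are chr5:134946935-134947184 for Cldn4, chr4:133602169-133602418 for Sfn and chr5:134985964-134986213 for Cldn3. Capitals mark matches to TGANTCA (the AP-1 motif) in Cldn4, to AACCNGTT on the other strand (the grainyhead-like motif, GRHL) in Sfn, and to GGGCGG on the other strand (the GC box) in Cldn3.
Cldn4: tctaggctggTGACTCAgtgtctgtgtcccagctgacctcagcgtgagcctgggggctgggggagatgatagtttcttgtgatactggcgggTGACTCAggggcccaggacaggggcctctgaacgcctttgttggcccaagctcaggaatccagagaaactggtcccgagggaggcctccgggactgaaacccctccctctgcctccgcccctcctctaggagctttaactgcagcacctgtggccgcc
Sfn: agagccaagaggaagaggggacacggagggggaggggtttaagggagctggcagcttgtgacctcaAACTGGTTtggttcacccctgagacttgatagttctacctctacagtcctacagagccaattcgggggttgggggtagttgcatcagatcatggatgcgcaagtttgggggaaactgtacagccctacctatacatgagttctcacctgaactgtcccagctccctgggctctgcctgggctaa
Cldn3: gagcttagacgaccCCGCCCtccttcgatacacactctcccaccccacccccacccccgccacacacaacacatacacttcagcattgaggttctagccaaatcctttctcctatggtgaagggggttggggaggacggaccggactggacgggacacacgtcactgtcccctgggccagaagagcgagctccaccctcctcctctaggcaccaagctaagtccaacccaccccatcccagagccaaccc

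The Cldn4 window held 2 AP-1 matches, which began 240 and 158 bases upstream of the start, and also a GC box, an E-box and a KLF match. Of all 32851 windows of the same length, 6.75% held at least 1 AP-1 match on either strand and 0.338% held 2 or more. The Sfn window held 1 GRHL match, beginning 184 bases upstream, against 1.79% of all windows, and also E-box, ETS, KLF, CCAAT and NF-kB matches. The Cldn3 window held a GC box 236 bases upstream, a match found in 32.7% of all windows, and 5 matches to CACCC (the KLF motif), found at least once in 52.0%. In total 15 motifs were searched on both strands of the windows. The others were the TATA box (TATAAA, 12.4% of all windows), an E-box (CAGGTG, 17.2%), TEAD (GGAATG, 12.6%), ETS (AGGAAG, 29.5%), NKX2-1 (CAAGTG, 11.6%), the CCAAT box (CCAAT, 33.8%), the heat shock motif (GAANNTTC, 6.69%), C/EBP (TTGCNNAA, 9.56%), the interferon response element ISRE (2.98%), NF-kB (45.8%) and the p53 half-site (7.13%). The motif marked in each printed window was picked from these 15, so its share among all windows does not measure how unusual the match is. The windows of Cldn7, Cldn18 and Lgals3 held no AP-1 or GRHL match. The matches are descriptions of the letters only, and the binding of any factor was not measured.

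The normal organoid library held 5441 barcodes and 211680702 unique molecular identifiers (UMIs), and the fibrogenic library 8894 barcodes and 238618743 UMIs. The median depth per barcode was 36841 and 4289.5 UMIs, so the fibrogenic library had many shallow barcodes, of which those below 2000 UMIs were left out. Epithelial barcodes numbered 1891 in the normal and 1698 in the fibrogenic library, and FB barcodes 2063 and 2965. A further 377 and 905 barcodes carried both epithelial and FB genes and were left out, and the libraries shared 13 barcodes, 1 of them epithelial in both. Within the classes compared below the depth was closer, with a median of 42110 and 38414.5 UMIs in AEC2 barcodes, 30581 and 29131 in Hopx-high barcodes, and 43147 and 39354 in Krt19-high barcodes.

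Levels are given as CPM, the UMIs of a gene per 1000000 UMIs of the same barcodes. AEC2 barcodes were epithelial barcodes with at least 20000 CPM of Sftpc. Below that limit, barcodes in the top 10% of all epithelial barcodes for Hopx were called Hopx-high, those in the top 10% for Krt19 were called Krt19-high, those in both formed a class of their own, and the rest are called other epithelial barcodes. The normal library held 1487 AEC2, 89 Hopx-high, 123 Krt19-high, 13 Hopx- and Krt19-high and 179 other epithelial barcodes, and the fibrogenic library held 1174, 105, 191, 20 and 208. As a share of epithelial barcodes, AEC2s made up 78.6% (exact binomial interval 76.7% to 80.5%) with normal FBs and 69.1% (66.9% to 71.3%) with fibrogenic FBs, and Krt19-high barcodes made up 6.5% (5.43% to 7.71%) and 11.2% (9.78% to 12.8%). The classes are ranges of a score, and within 20% of the Sftpc limit lay 36 and 21 barcodes, within 20% of the Hopx limit 47 and 55, and within 20% of the Krt19 limit 63 and 74.

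The classes were checked against marker genes, of which Sftpc, Hopx and Krt19 were fixed by the limits, and Krt8, Krt18, Epcam and Cdh1 by the epithelial gate. Relative to AEC2 barcodes, all 10 AEC1 marker genes with enough UMIs were at least 2-fold higher in Hopx-high barcodes of both libraries, Ager and Rtkn2 among them. Of all genes, 10.3% and 8.97% were. In Krt19-high barcodes 10 of 12 transitional markers were at least 2-fold higher in both libraries, Krt19, Krt8 and Krt18 among them, against 14.6% and 12.7% of all genes. All 8 AEC2 markers were at least 2-fold lower, against 12.4% and 13.3%. Only 2 of 10 AEC1 markers in the normal library and 1 in the fibrogenic library were at least 2-fold higher. In the normal library Ager, Aqp5 and Rtkn2 were at least 2-fold lower, at log2 ratios of −1.60, −1.27 and −2.76. The summed AEC1 markers stood at 18519 and 16481 CPM in Hopx-high barcodes of the normal and fibrogenic library and at 1421 and 2184 in Krt19-high barcodes. The Krt19-high barcodes therefore carried the transitional set. Their summed AEC1 markers were no higher than in AEC2 barcodes, which stood at 2345 and 2284. That comparison depends on the class rule, which placed Krt19-rich barcodes also high in Hopx in a class of their own. There the summed AEC1 markers stood at 16655 and 14542 CPM. Of other cell types, 4 basal cell markers summed to 0.4 CPM in Krt19-high barcodes of either library, 6 airway markers to 10.3 and 9.6, and 7 FB markers to 89.3 and 114, against 10194 and 10133 in FB barcodes and 89.2 and 121 in AEC2 barcodes. Of 4 mesothelial markers, Msln reached 324 and 445 CPM in Krt19-high barcodes, and Upk3b, Wt1 and Lrrn4 were at 0 UMIs there.

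Cldn4, Clu and Sfn were the genes that set Krt19-high barcodes apart from AEC2s, Cldn7 and Lgals3 were higher by a smaller margin, Cldn3 was close to its AEC2 level, and Cldn18 was lower, except in the fibrogenic library when barcodes high in both Hopx and Krt19 were included. In Hopx-high barcodes Cldn18 stood far above and Cldn3 below the AEC2 level, and Cldn4 was also higher, though less than in Krt19-high barcodes. Genes at least 2-fold apart were counted among those with at least 50 UMIs in the classes compared, on the log2 scale after 1 CPM was added to each level. For Krt19-high over AEC2, 5 of the 7 genes were at least 2-fold higher in the normal library, where 14.6% of all genes were, and 5 in the fibrogenic library, where 12.7% were, and 0 were at least 2-fold lower, against 12.4% and 13.3% of all genes. For Hopx-high over AEC2, 5 of the 7 were at least 2-fold higher in each library, against 10.3% and 8.97% of all genes, and of the 7 only Cldn3 was at least 2-fold lower, in the normal library alone, against 11.4% and 11.6%. With the top 20% in place of the top 10% for Hopx and Krt19, only Cldn4 and Cldn18 were at least 2-fold apart between Hopx-high and AEC2 barcodes of the fibrogenic library. Set directly against Hopx-high barcodes, Krt19-high barcodes had Clu, Cldn4, Sfn, Cldn3 and Cldn7 at least 2-fold higher in the normal library, at log2 ratios between 1.07 and 3.99, where 12.6% of all genes were. In the fibrogenic library Clu, Cldn4 and Sfn were at least 2-fold higher, at ratios between 2.56 and 2.81, where 11% were, and Cldn18 was at least 2-fold lower in both libraries, against 10.2% and 8.48%. The 7 genes had a median log2 ratio of 1.33 and 1.81 in Krt19-high over AEC2 barcodes and of 1.15 and 1.35 in Hopx-high over AEC2 barcodes. The median of all genes was shifted by 0.15 and 0.12 in the former and by 0.10 in both libraries in the latter, and the ratios below are to be read against that shift.

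**Figure D1:**
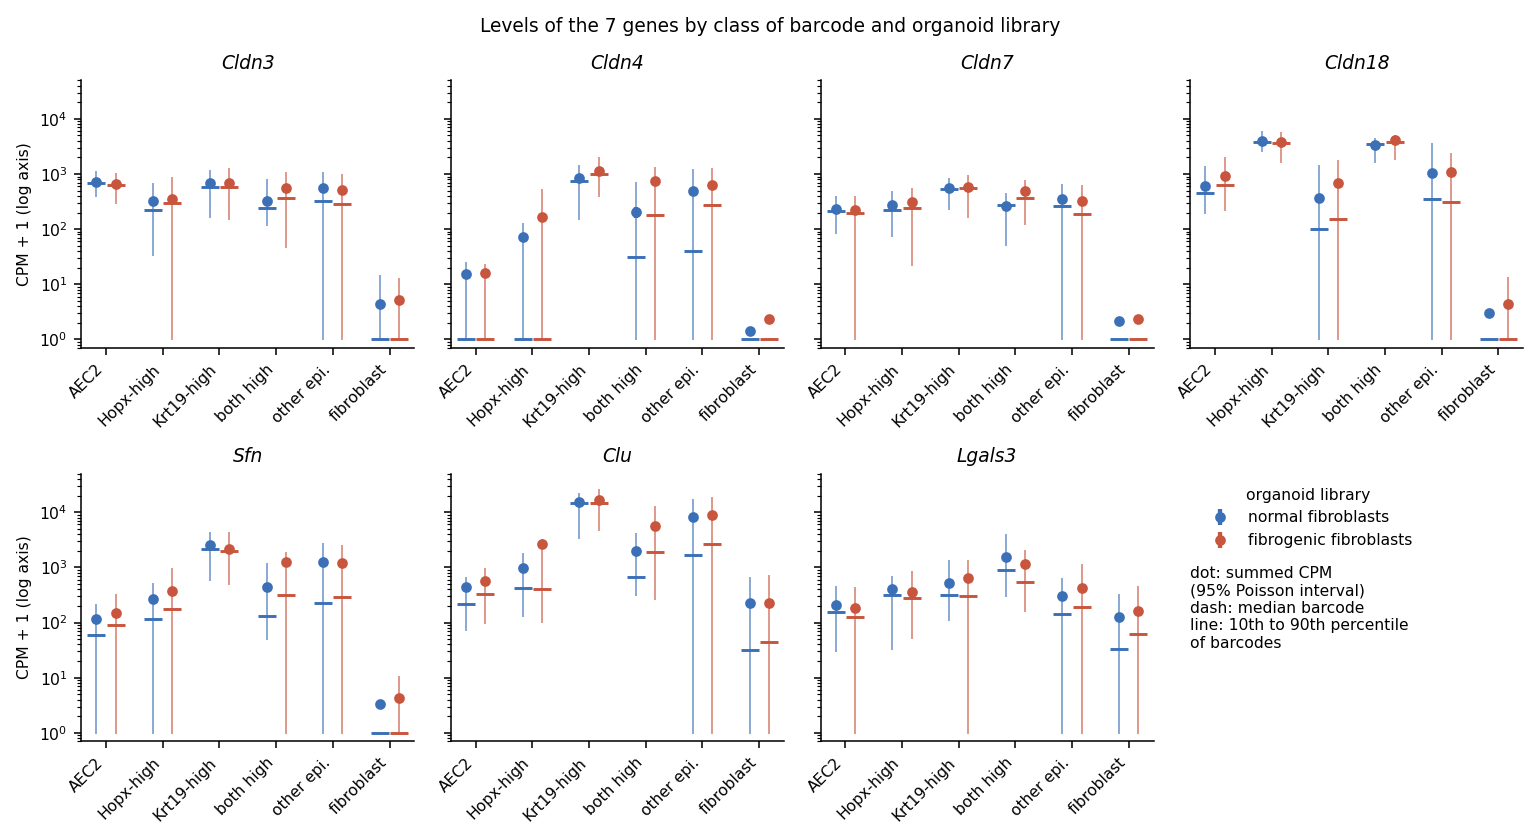
Level of each gene (CPM plus 1, log axis) in 6 classes of barcodes for the normal and the fibrogenic organoid library. Dots are UMIs summed over the class with exact Poisson intervals, dashes are the median barcode and lines run from the 10th to the 90th percentile of barcodes. Cldn4, Sfn and Clu are highest in the Krt19-high class, Cldn18 is highest in the classes rich in Hopx, and the dashes of Cldn4 lie at 0 UMIs in AEC2, Hopx-high and fibroblast barcodes.

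Cldn4 had the widest range of the 7 genes between epithelial classes, taken as a ratio of levels. In AEC2 barcodes it stood at 14.3 CPM (exact Poisson interval 13.4 to 15.3) with normal and 14.9 (13.7 to 16.0) with fibrogenic FBs. In Hopx-high barcodes it stood at 70.1 (61.0 to 80.0) and 163 (150 to 178), and in Krt19-high barcodes at 837 (813 to 861) and 1153 (1129 to 1177). The order from AEC2 to Hopx-high to Krt19-high was thus the same in both libraries, with no overlap of the counting intervals between classes. The log2 ratio of Krt19-high over AEC2 was 5.77 and 6.19. The UMIs were spread over most Krt19-high barcodes, whose median was 753 and 989 CPM, but the median AEC2 and the median Hopx-high barcode had 0 UMIs in both libraries. The 5 barcodes with most Cldn4 held 33.6% and 48.8% of all Cldn4 UMIs of the AEC2 class and 65.9% and 51.2% of those of the Hopx-high class. Other epithelial barcodes, which lay below the Krt19 limit, held Cldn4 at 499 and 633 CPM, and FB barcodes at 0.43 and 1.35.

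For shares of barcodes with a UMI, each barcode was thinned to 10000 UMIs and shallower ones were left out. This kept 113 of 123 Krt19-high barcodes in the normal and 149 of 191 in the fibrogenic library, 82 of 89 and 84 of 105 Hopx-high ones, and 1372 of 1487 and 955 of 1174 AEC2s. Of the other epithelial barcodes, which were shallower, it kept 108 of 179 and 100 of 208. At least 1 Cldn4 UMI was then found in 96.5% and 99.3% of Krt19-high barcodes. The share was 57.4% and 68.0% in other epithelial barcodes, 20.7% and 29.8% in Hopx-high barcodes, and 6.05% and 5.97% in AEC2 barcodes. In FB barcodes, which should lack the gene, it was 0.22% and 1.33%. Without thinning and over all barcodes of a class, the shares were 90.2% and 94.2% in Krt19-high, 36.0% and 44.8% in Hopx-high, 16.1% and 14.8% in AEC2 and 2.28% and 5.19% in FB barcodes. Cldn4 was therefore detected in most Krt19-high barcodes and in few AEC2s, with or without equal depth.

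Cldn18, the claudin of differentiated alveolar epithelium, followed Hopx. Its level was 617 CPM in AEC2, 3914 in Hopx-high and 369 in Krt19-high barcodes of the normal library, and 908, 3754 and 676 in the fibrogenic library. Hopx-high barcodes were higher than AEC2s by a log2 ratio of 2.66 and 2.05, and Krt19-high barcodes stood below Hopx-high ones at log2 ratios of −3.40 and −2.47. In Krt19-high over AEC2 barcodes the ratio was −0.74 and −0.42, and in the fibrogenic library it turned to 0.13 when barcodes high in both genes were counted in both classes. After thinning it was found in all Hopx-high barcodes of both libraries but in 60.2% and 70.5% of Krt19-high barcodes. The median Krt19-high barcode had 101 and 152 Cldn18 CPM, well below the summed level, so that part of the class carried most of the transcripts. In Krt19-high barcodes the summed AEC1 markers were also higher in the fibrogenic library, and the part of this in the Cldn18 values was not tested.

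Cldn3, the neighbour of Cldn4 on the chromosome, did not share its pattern. Cldn3 stood at 719 and 656 CPM in AEC2, at 691 and 678 in Krt19-high and at 320 and 351 in Hopx-high barcodes of the normal and fibrogenic library. The log2 ratio over AEC2 was −0.06 and 0.05 in Krt19-high barcodes and −1.17 and −0.90 in Hopx-high barcodes. Cldn3 was thus a claudin of both Sftpc-rich and Krt19-rich barcodes, and among these classes lowest in the one with most Cldn18 and Hopx. In barcodes high in both Hopx and Krt19, Cldn3 stood at 324 and 558 CPM and Cldn18 at 3306 and 4081. In FB barcodes Cldn3 stood at 3.31 and 4.17 CPM.

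Cldn7 varied least between classes together with Cldn3. Its level was 233 and 221 CPM in AEC2, 269 and 307 in Hopx-high and 566 and 572 in Krt19-high barcodes. The log2 ratio of Krt19-high over AEC2 was 1.27 and 1.37, and that of Hopx-high over AEC2 was 0.21 and 0.47. Cldn7 was present in 86.0% and 86.6% of thinned AEC2 barcodes, so that its difference between classes was one of level more than of detection.

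Because 1 UMI stands for 1 captured transcript, the claudin genes can be set side by side as shares of all claudin UMIs, with no correction for differences in capture between genes. In AEC2 barcodes Cldn3 made up 44.8% and Cldn18 38.4% of claudin UMIs with normal FBs, and 35.9% and 49.7% with fibrogenic FBs. In Hopx-high barcodes Cldn18 alone made up 85.4% and 81.7%. Krt19-high barcodes had a mixed set, in which Cldn4 made up 32.4% and 36.2%, Cldn3 26.7% and 21.3%, Cldn7 21.9% and 18%, and Cldn18 14.3% and 21.2%. Cldn4 was below 1% of claudin UMIs in AEC2s, at 0.893% and 0.813%. The claudin total was 1607 and 1827 CPM in AEC2, 4585 and 4594 in Hopx-high and 2586 and 3183 in Krt19-high barcodes.

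**Figure D2:**
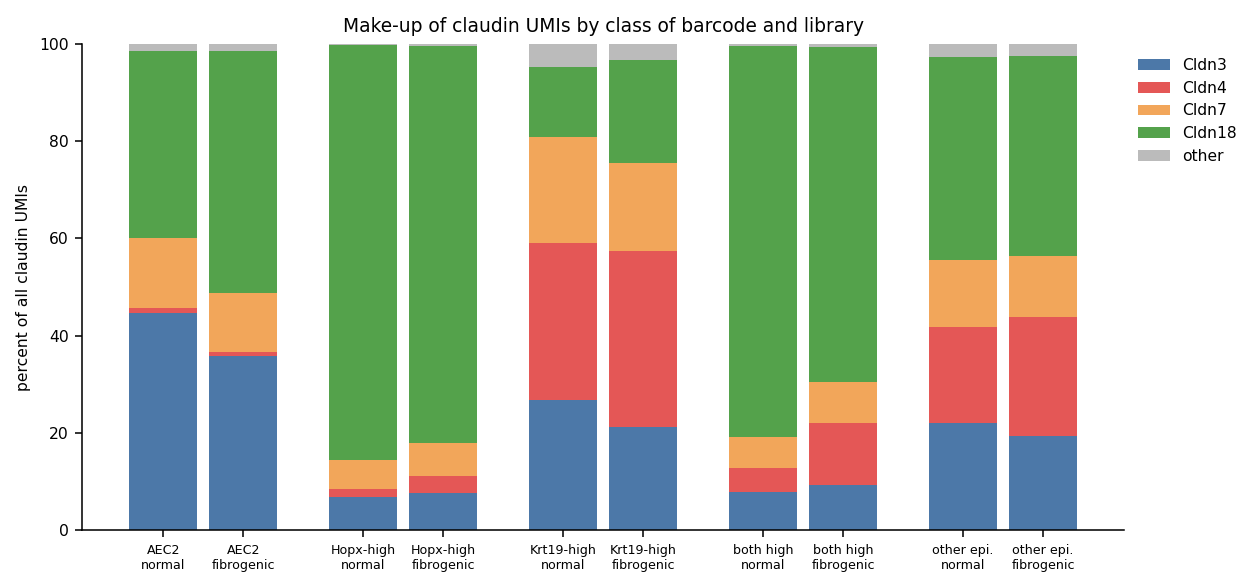
Share of all claudin UMIs (percent, 23 claudin genes) taken by Cldn3, Cldn4, Cldn7, Cldn18 and the remaining claudins in each class of barcodes, for both organoid libraries. Hopx-high bars are mostly Cldn18 (85.4% and 81.7%), AEC2 bars mostly Cldn3 and Cldn18, and the Krt19-high bars hold all 4 claudins with Cldn4 as the largest share.

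The other 19 claudin genes added little, 4.79% and 3.29% of claudin UMIs in Krt19-high barcodes. The highest in Krt19-high barcodes was Cldn6, a claudin of embryonic epithelia, with 1.33 and 1.15 CPM in AEC2, 1.94 and 5.17 in Hopx-high and 93.3 and 70.5 in Krt19-high barcodes. Cldn1 went from 0.179 and 0.180 CPM in AEC2 to 7.40 and 8.99 in Krt19-high barcodes and Cldn23 from 0.165 and 0.135 to 8.12 and 10.8, each with under 100 UMIs in a class. Cldn2, a pore-forming claudin, was at 5.44 and 7.02 CPM in AEC2s and had 0 UMIs in Krt19-high barcodes.

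Genes of the rest of the junction were counted in the same comparisons, where 14.6% and 12.7% of all genes were at least 2-fold higher in Krt19-high barcodes, with a median of 0.15 and 0.12, and 10.3% and 8.97% in Hopx-high barcodes, with a median of 0.10 in both libraries. Of 19 genes for tight junction scaffold and partner proteins, 5 in the normal and 4 in the fibrogenic library were at least 2-fold higher in Krt19-high barcodes, and 1 and 0 were at least 2-fold lower, with a median log2 ratio of 0.41 and 0.36. The higher ones in both libraries were Ocln (occludin), Pard6b, Cgn (cingulin) and F11r, at log2 ratios between 1.22 and 1.65. In Hopx-high barcodes 9 of the 19 were at least 2-fold higher in both libraries. The highest was Pard6b at 3.07 and 3.13, followed by Tjp1 (ZO-1) at 2.36 and 2.22. Jam2 was at least 2-fold lower in the normal library, at −1.23, where 11.4% of all genes were lower. That ratio rests on low counts, with 0 UMIs in Hopx-high barcodes and 1.35 CPM in AEC2s. Of 12 adherens junction and desmosome genes, 8 and 7 were at least 2-fold higher in Krt19-high barcodes, Cdh1 of the epithelial gate among them, and 3 and 2 in Hopx-high barcodes. Perp, a desmosome gene and p53 target, had the highest ratio of these, with 91.7 and 89.4 CPM in Krt19-high barcodes and log2 ratios of 3.65 and 3.61, and its ratio in Hopx-high barcodes was 0.19 and −0.42.

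Sfn was also highest in Krt19-high barcodes, by a smaller ratio over AEC2s than Cldn4 or Clu. It stood at 116 and 145 CPM in AEC2, 270 and 371 in Hopx-high and 2495 and 2191 in Krt19-high barcodes of the normal and fibrogenic library, and at 1274 and 1179 in other epithelial barcodes. The log2 ratio of Krt19-high over AEC2 was 4.42 and 3.91, and that over Hopx-high was 3.21 and 2.56. After thinning, Sfn was found in 100% of Krt19-high barcodes of both libraries, and in 50.0% and 61.1% of AEC2 barcodes. FB barcodes had the gene in 2.40% and 2.92%, but they were chosen for low epithelial genes and so give no background for AEC2s. The part of doublets with other epithelial cells in the AEC2 shares was not tested. Sfn and Cldn4 thus differed in AEC2s, where Sfn was found in many barcodes at a low level and Cldn4 in few.

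The other 6 genes of the 14-3-3 family, which are expressed in most cells, had lower ratios than Sfn in Krt19-high over AEC2 barcodes. Of these, 3 in the normal and 2 in the fibrogenic library were at least 2-fold higher, and the highest was Ywhah, at log2 ratios of 1.73 and 1.70. In Hopx-high over AEC2 barcodes of the normal library Ywhah stood at 1.46, above Sfn at 1.21. Sfn is a p53 target, and of 16 other p53 targets 13 were at least 2-fold higher in Krt19-high barcodes of both libraries, where 14.6% and 12.7% of all genes were, with a median log2 ratio of 1.76 and 1.90. Among these were Phlda3, an inhibitor of Akt signalling, at 3.09 and 2.74, and Cdkn1a, the cell cycle inhibitor p21, at 2.34 and 1.94. In Hopx-high barcodes 6 and 9 of the 16 were at least 2-fold higher, where 10.3% and 8.97% of all genes were, and 1 was at least 2-fold lower. All 5 genes of a cell cycle list were at least 2-fold lower than in AEC2s in both the Hopx-high and the Krt19-high class. Of all genes 11.4% and 11.6% were lower in the former and 12.4% and 13.3% in the latter. The 5 genes were unevenly spread over AEC2s, where their sum had a median of 14.5 and 0 CPM and a 90th percentile of 595 and 282.

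Clu had the highest level of the 7 genes in Krt19-high barcodes, whereas Cldn3 or Cldn18 stood above it in AEC2 and Cldn18 in Hopx-high barcodes. It stood at 433 and 566 CPM in AEC2, 962 and 2707 in Hopx-high and 15262 and 16403 in Krt19-high barcodes, and at 8080 and 8955 in other epithelial barcodes. The log2 ratio of Krt19-high over AEC2 was 5.14 and 4.85, and the median Krt19-high barcode had 14511 and 14548 CPM. The median Hopx-high barcode had 422 and 405 CPM, against 215 and 333 in AEC2s. In the Hopx-high class 5 barcodes held 47.4% and 72.5% of the Clu UMIs, so its sum over AEC2s rested on few barcodes in the fibrogenic library. FB barcodes also held Clu, at 228 and 226 CPM and in 43.3% and 50.7% of thinned barcodes. For other genes in FB against AEC2 barcodes, Sftpc stood at 310 and 316 against 81755 and 82855 CPM, and Cldn3 at 3.31 and 4.17 against 719 and 656. The Clu level of FB barcodes lay below that of AEC2 barcodes and far below the 15262 and 16403 CPM of Krt19-high barcodes. The part of epithelial RNA in the Clu of FB barcodes was not tested. The summed FB markers were 89.2 and 121 CPM in AEC2 and 89.3 and 114 in Krt19-high barcodes, with single markers going either way, such as Col1a1 from 15.0 to 41.1 and Col6a1 from 34.7 to 6.5 CPM between AEC2 and Krt19-high barcodes of the normal library. The part of FB RNA in the Clu values was not tested.

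Lgals3 was higher in both the Hopx-high and the Krt19-high class than in AEC2s, by smaller ratios than Cldn4, Sfn and Clu. It stood at 205 and 181 CPM in AEC2, 411 and 364 in Hopx-high and 515 and 638 in Krt19-high barcodes, and at 1519 and 1139 in the 13 and 20 barcodes high in both Hopx and Krt19. The log2 ratio over AEC2 was 1.00 in Hopx-high barcodes of both libraries, at the limit of 2-fold, and 1.33 and 1.81 in Krt19-high barcodes. Under the 12 alternatives the ratio in Hopx-high barcodes ran from 0.20 to 1.40 in the normal and from 0.15 to 1.52 in the fibrogenic library, so that its place among the genes at least 2-fold higher there was not stable. FB barcodes held Lgals3 at 126 and 162 CPM, and 40.5% and 53.1% of them held a UMI after thinning. In the barcodes high in both Hopx and Krt19, 6 macrophage markers summed to 33.9 and 21.7 CPM, mostly Cd68, against 7.4 and 7.7 in AEC2s, with Ptprc at 0 UMIs, and their part in the Lgals3 level was not tested. Of 4 other galectin genes with enough UMIs, Lgals1 was at least 2-fold higher in Krt19-high over AEC2 barcodes, at log2 ratios of 4.30 and 3.22, and Lgals4 at least 2-fold lower in the fibrogenic library alone, at −1.32 against −0.90 in the normal one. Lgals3bp, which encodes a binding partner of galectin-3 and is no galectin, stood at −1.69 and −0.70.

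The members were next counted together within single barcodes thinned to 10000 UMIs. All of Cldn4, Cldn7, Sfn and Clu were found in 95.6% (exact binomial interval 90% to 98.5%) of Krt19-high barcodes in the normal and 97.3% (93.3% to 99.3%) in the fibrogenic library. The share was 53.7% and 58.0% in other epithelial barcodes, and 30.8% and 62.5% in the few barcodes high in both Hopx and Krt19. It was 15.9% and 28.6% in Hopx-high barcodes, 3.72% and 4.71% in AEC2 barcodes and 0 of 1831 and 0 of 1954 FB barcodes. With Cldn18, Cldn3 and Lgals3 added, all 7 genes were found in 49.6% and 55.0% of Krt19-high, 13.4% and 26.2% of Hopx-high and 3.28% and 3.46% of AEC2 barcodes. In Krt19-high barcodes Cldn18 was the gene most often missing from the full set. Cldn4, Sfn and Cldn18 were found together in 56.6% and 69.8% of them, so most Krt19-high barcodes with Cldn4 also held Cldn18 transcripts.

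**Figure D3:**
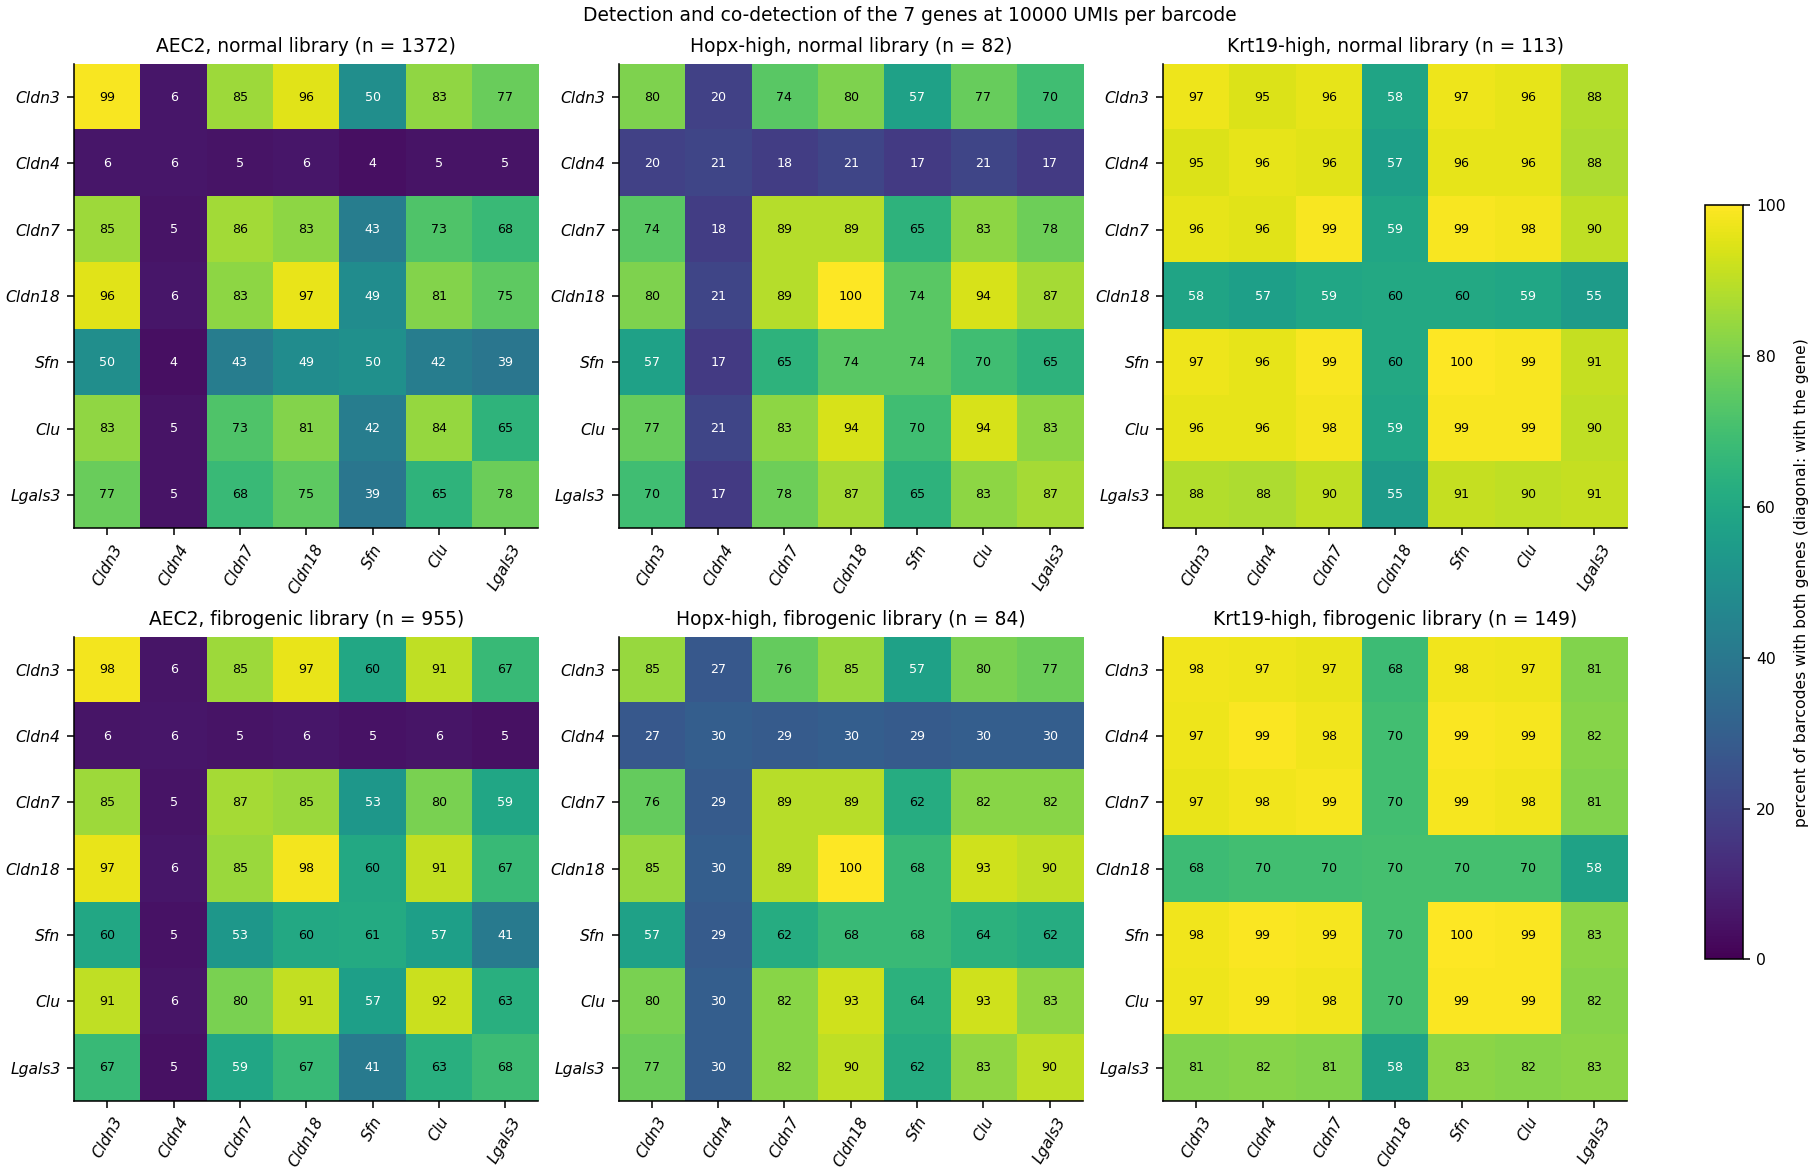
Percent of barcodes with at least 1 UMI of both genes of a pair (diagonal: of the single gene) after each barcode was thinned to 10000 UMIs, in 3 classes and 2 organoid libraries. In the Krt19-high panels the Cldn18 row is low and nearly every other pair is high, and in the AEC2 and Hopx-high panels the Cldn4 row is low.

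In AEC2, Hopx-high and other epithelial barcodes, where Cldn4 was not found in nearly every barcode, Sfn was compared between barcodes with and without it. In AEC2s Sfn was found in 69.9% of the 83 with Cldn4 (exact binomial interval 58.8% to 79.5%) and 48.7% of the 1289 without (46.0% to 51.5%) in the normal library, and in 82.5% of 57 (70.1% to 91.2%) and 59.7% of 898 (56.4% to 62.9%) in the fibrogenic library. In other epithelial barcodes the shares were 96.8% of 62 (88.8% to 99.6%) and 58.7% of 46 (43.2% to 73.0%) with normal FBs, and 95.6% of 68 (87.6% to 99.1%) and 59.4% of 32 (40.6% to 76.3%) with fibrogenic FBs. In Hopx-high barcodes of the fibrogenic library they were 96.0% of 25 (79.7% to 99.9%) and 55.9% of 59 (42.4% to 68.8%). Sfn was thus more frequent beside Cldn4 in these 5 sets, with intervals that do not overlap, but the intervals overlapped in Hopx-high barcodes of the normal library, at 82.4% of 17 (56.6% to 96.2%) and 72.3% of 65 (59.8% to 82.7%). Across the other epithelial barcodes, Spearman's rho between Cldn4 and Sfn counts was 0.73 over 108 barcodes and 0.71 over 100. These barcodes share a library and a thinned depth, and are not independent replicates.

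Levels were also followed over steps of Krt19, which is the gene that chose the Krt19-high class, so the upper step overlaps that class. Among barcodes with Sftpc below the limit, Cldn4 stood at 23.2 and 86.0 CPM below 50 Krt19 CPM and at 790 and 1107 at 1600 or more. Sfn went from 66.7 and 103 to 2361 and 2108, and Clu from 1373 and 1223 to 14375 and 15302 over the same steps. The lowest step was shallow, with a median of 4401 and 4944 UMIs per barcode. Cldn18 had its peak in the middle, at 3378 and 3558 CPM between 200 and 400, and stood at 576 and 1027 in the highest step. From the step of 200 to 400 onward, the levels of Cldn4, Sfn and Clu thus went up with each step of Krt19 while that of Cldn18 came down. Hopx peaked in the same step as Cldn18, at 2317 and 2546 CPM, and stood at 337 and 440 in the highest step. The steps therefore differed in their content of Hopx-rich barcodes, and the part of this in the Cldn18 levels was not tested.

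Within AEC2 barcodes Cldn4, Sfn and Clu were also higher at high Krt19. These barcodes were chosen on Sftpc and on the epithelial gate, which includes Krt8 and Krt18, but not on Krt19. In AEC2s with 800 to 1600 Krt19 CPM, 33 in the normal and 22 in the fibrogenic library, Cldn4 stood at 167 and 232 CPM, Sfn at 628 and 836 and Clu at 2864 and 3651. In AEC2s with 50 to 200 the levels were 3.47 and 3.74 for Cldn4, 78.6 and 130 for Sfn and 278 and 414 for Clu. Cldn18 had no single direction there, with 871 and 1052 CPM below 50 Krt19 CPM, 558 and 875 between 50 and 200, and 817 and 1583 between 800 and 1600. Barcodes rich in both Sftpc and Krt19 can be single cells or doublets, and which they were was not tested.

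**Figure D4:**
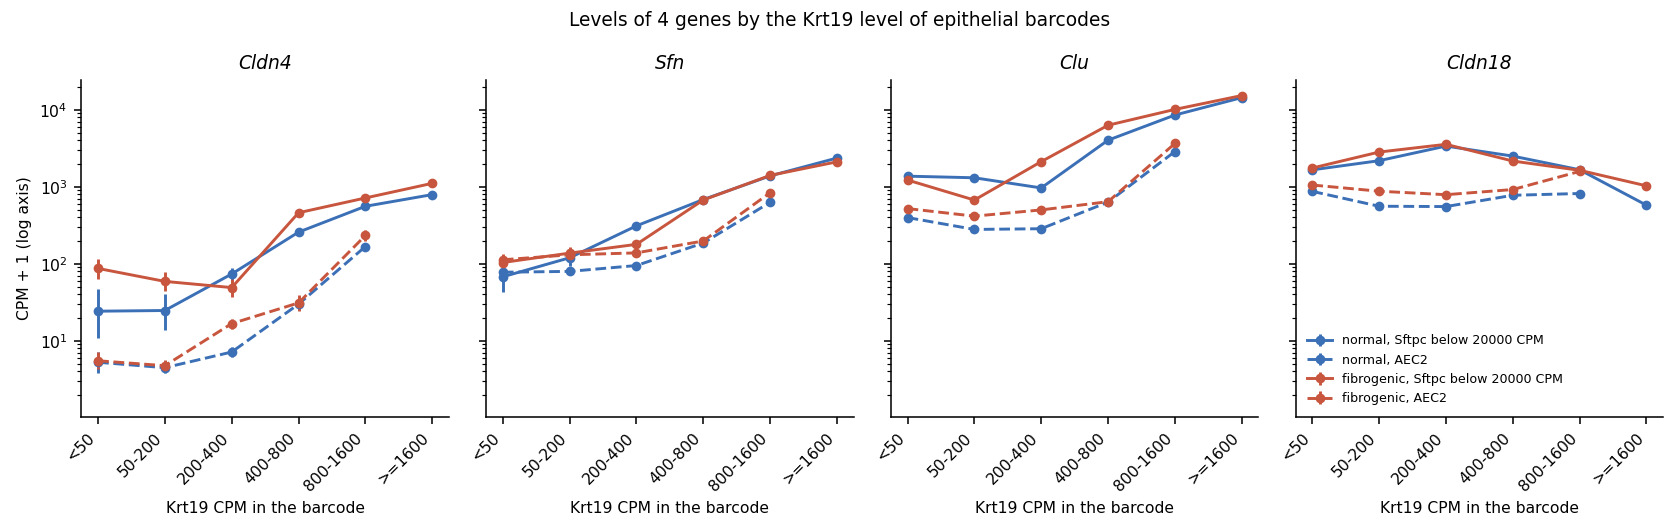
Levels of Cldn4, Sfn, Clu and Cldn18 (CPM plus 1, log axis, exact Poisson intervals) against steps of Krt19 CPM, for AEC2 barcodes (dashed) and epithelial barcodes with Sftpc below 20000 CPM (solid) in both organoid libraries. Only steps with at least 20 barcodes are drawn; Cldn4, Sfn and Clu are highest in the last step drawn of each line, and the solid lines of Cldn18 peak at 200 to 400.

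The classes were next compared between organoids with fibrogenic and with normal FBs. In AEC2 barcodes 0 of the 7 genes were at least 2-fold apart, against 0.35% of all genes. The largest log2 ratio of fibrogenic over normal was that of Cldn18, at 0.56 (interval 0.54 to 0.58), followed by Clu at 0.39 and Sfn at 0.32. Cldn4 had a ratio of 0.05 (−0.09 to 0.18), Cldn7 of −0.08, Cldn3 of −0.13 and Lgals3 of −0.18. AEC2s with fibrogenic FBs therefore had more Cldn18 and slightly less Cldn3, which is the turn seen in their claudin shares.

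In Krt19-high barcodes 0 of the 7 genes were at least 2-fold apart, against 0.81% of all genes. Cldn18 had the largest ratio, at 0.87 (0.80 to 0.95), followed by Cldn4 at 0.46 (0.41 to 0.51) and Lgals3 at 0.31. Clu at 0.10, Cldn7 at 0.02 and Cldn3 at −0.03 were nearly level, and Sfn was lower at −0.19. The Cldn4 difference was also seen in the median barcode, at 989 against 753 CPM. The median barcode had nearly the same Lgals3 in both libraries, at 301 with fibrogenic and 309 with normal FBs.

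In Hopx-high barcodes 2 of the 7 genes were at least 2-fold higher with fibrogenic FBs, where 1.04% of all genes were at least 2-fold apart. These were Clu, at a log2 ratio of 1.49 (1.43 to 1.55), and Cldn4, at 1.21 (0.98 to 1.44). The Clu difference rested on few barcodes. The 5 barcodes with most Clu held 72.5% of the Clu UMIs of the class in the fibrogenic and 47.4% in the normal library, and the median barcode had 405 and 422 Clu CPM. Cldn4 was at 0 UMIs in the median Hopx-high barcode of both, but its 75th percentile stood at 176 CPM in the fibrogenic and 35.7 in the normal library, and its 5 highest barcodes held a smaller share of the UMIs in the fibrogenic library (51.2% against 65.9%). With the Hopx and Krt19 limits widened to the top 20%, the ratio was 0.11 for Cldn4 and 0.21 for Clu. The Clu ratio was also under 2-fold with the top 5% (0.37), without the barcodes of the top 5% of UMIs (0.44) and as a mean of single-barcode values (0.92). Summed FB markers in Hopx-high barcodes were 116 CPM in the fibrogenic and 61.3 in the normal library, and Tnip3 and Msln, which were high in the Krt19-high class, stood at 81.1 and 125 CPM in the fibrogenic against 24.9 and 55.5 in the normal library. Of the 12 transitional markers, Tnip3 among them, 1 was at least 2-fold higher and 1 at least 2-fold lower, with a median log2 ratio of 0.33, and Krt19 itself stood at −0.05. The part of these in the Clu and Cldn4 values was not tested. Cldn18, the leading claudin of the class, was nearly level at −0.06.

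In the 13 and 20 barcodes high in both Hopx and Krt19, 3 of the 7 genes were at least 2-fold higher with fibrogenic FBs, Cldn4 at 1.90, Sfn at 1.54 and Clu at 1.5, where 5.31% of all genes were at least 2-fold apart. The class was small, and its 5 barcodes with most Cldn4 held 97.6% and 84.3% of the Cldn4 UMIs. Summed transitional markers stood at 8978 CPM in the normal and 14254 in the fibrogenic library, and summed FB markers at 48.4 and 113. The part of these in the 3 ratios was not tested. Over AEC2 barcodes of the same library, 6 of the 7 genes were at least 2-fold apart in this class in each library, against 35.1% and 30.4% of all genes, with Cldn4 at log2 ratios of 3.72 and 5.57 and Cldn18 at 2.42 and 2.17. It thus held the claudins of both the Hopx-high and the Krt19-high class in its sum. In other epithelial barcodes 0 of the 7 genes were at least 2-fold apart, against 1.73% of all genes.

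**Figure D5:**
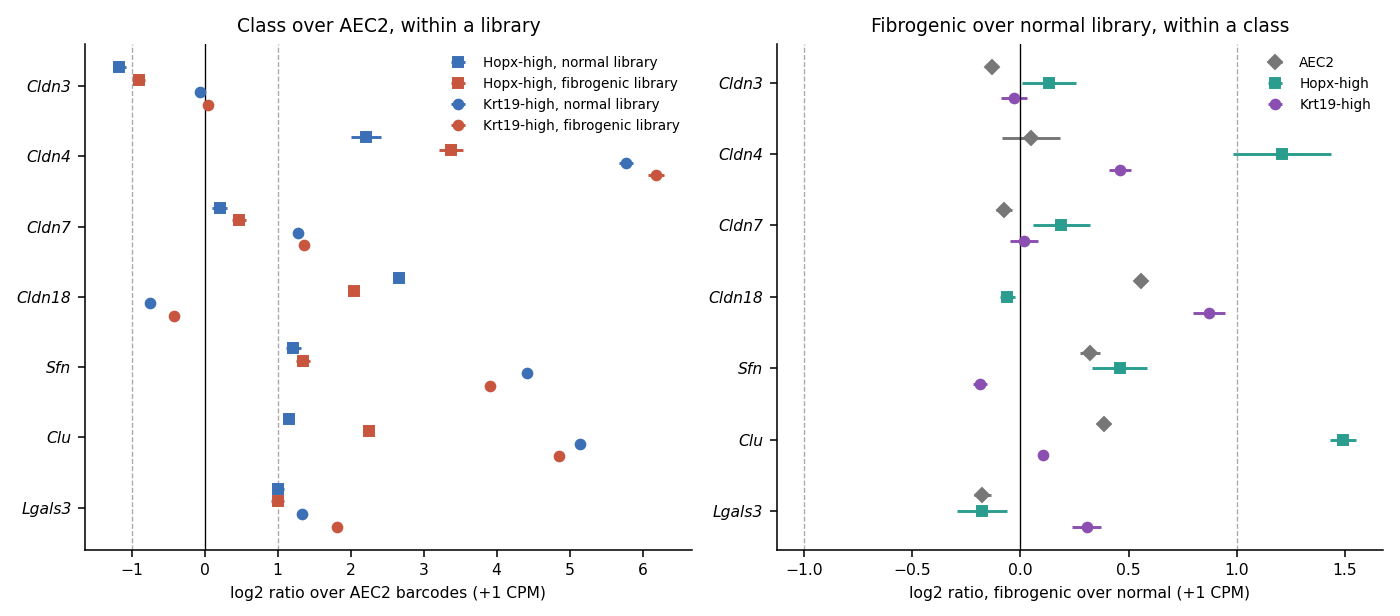
Log2 ratios of the 7 genes with 95% counting intervals, for Hopx-high and Krt19-high over AEC2 barcodes within each library (left) and for fibrogenic over normal organoids within the AEC2, Hopx-high and Krt19-high classes (right), with dashed lines at 2-fold. On the left Cldn4, Clu and Sfn reach the highest values in Krt19-high barcodes and Cldn18 lies on opposite sides of 0 in the 2 classes, and on the right only Cldn4 and Clu in Hopx-high barcodes lie past 2-fold.

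Over the 10 points given by 5 epithelial classes in 2 libraries, 14768 genes were compared with each member by Pearson's r of log2 levels. The genes named as most like a member are the closest ones after the claudins and all genes of the lists used above were left out. The points share 2 libraries and the same limits for the classes, and r is given as a description. Cldn4 was followed most closely by Mcam (r = 0.992), Litaf (0.992) and Ly6e (0.991). Sfn was followed by the actin-linked genes Flna (0.997) and Tpm1 (0.993) and by 2900026A02Rik (0.992). Clu was followed by Cdk6 (0.991), Palld (0.988), which encodes an actin-binding protein, and Rnf4 (0.985). Among the members, Sfn and Clu were the closest pair (0.987), and Cldn4 had an r of 0.972 with Sfn and 0.970 with Clu. Cldn18 was most like Cdkn1b (0.990), a cell cycle inhibitor gene, Fam189a2 (0.985) and Sec14l1 (0.982), and had an r of 0.987 with Hopx and −0.833 with Cldn3. Cldn3 was most like H13 (0.979), Reep6 (0.963) and Cycs (0.954), and had an r of 0.030 with its neighbour Cldn4. Cldn7 was most like Pml (0.985), Fkbp3 (0.979) and Rwdd1 (0.978). Lgals3 was most like Tgfa (0.973), which encodes a ligand of the epidermal growth factor receptor, Cltb (0.972) and Zfp777 (0.964).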

How the data were processed

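The authors made the deposited tables of UMI counts per gene and barcode with Cell Ranger 3.0.1 and the mm10 genome, and name Seurat 3, per the labels. The deposited counts were used as they are. Barcodes with at least 2000 UMIs and at most 25% mitochondrial UMIs were kept. Otsu limits set on both organoid libraries split the summed epithelial genes (56.4 CPM) and FB genes (518 CPM), and barcodes above both were dropped. No doublet caller was run. The Hopx limit was 1674 and the Krt19 limit 1629 CPM, with both libraries weighted equally. UMIs were summed per class and library with exact Poisson intervals, shares have exact Clopper-Pearson intervals, and log2 ratios, after 1 CPM was added, have intervals from a normal approximation. Thinning used seed 7. No p-value was computed, since each condition is 1 library. Scripts were tested on simulated data. The 7 genes, the gene lists and the limits were chosen with earlier results of these data known. Named genes beyond the 7 are members of the gene lists, other claudins and, for each gene, the 3 unlisted genes most like it. Only promoter windows, with no coding sequence, came from the RefSeq table. All 6 libraries were read, and the 4 lung libraries appear only in the closing section. Python 3.11.15, numpy 2.4.6, scipy 1.17.1, pandas 2.3.3, scikit-image 0.26.0 and matplotlib 3.10.9 were used.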

Additional observations from a re-analysis of the deposited data

Results flagged for a closer look

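For 5 genes the fibrogenic over normal log2 ratio pointed in opposite directions in different classes, with counting intervals that exclude 0, and the difference between classes was not tested. Cldn3 stood at −0.13 in AEC2 and 0.13 in Hopx-high barcodes, and Cldn7 at −0.077 and 0.19. Cldn18 stood at 0.56 in AEC2, −0.060 in Hopx-high and 0.87 in Krt19-high barcodes. Sfn stood at 0.32 in AEC2 and 0.46 in Hopx-high but −0.19 in Krt19-high barcodes. Lgals3 stood at −0.18 in both AEC2 and Hopx-high barcodes and at 0.31 in Krt19-high barcodes. Within Hopx-high barcodes these directions depended on the limits. With the top 20% for Hopx and Krt19 the ratio was −0.73 for Sfn, −0.05 for Cldn7 and 0.06 for Cldn18, with the top 5% it was 0.13 for Lgals3, and with a stricter Sftpc limit it was −0.08 for Cldn3.

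In sorted lung FBs, which the comparisons above did not use, some of the genes were above the level of the PBS library. Genes were flagged where bleomycin was at least 2-fold above PBS, the counting intervals did not overlap and PBS had at least 3 UMIs. The share of all genes passing this rule was not counted. Lgals3 did not pass, at 80.3 CPM with PBS and 80.8 with the single dose, and at 84.1 and 121 in the repetitive experiment. Cldn4 and Cldn7 did not pass either, with at most 8 UMIs in a library. Each lung library came from 3 pooled mice given PBS or bleomycin. For the single dose the labels disagree, with 2 U/kg in the protocol and 4 U/kg in the treatment field. Clu reached 36.0 CPM after a single dose of bleomycin (7.80 with PBS) and 39.5 after repetitive doses (9.0 with PBS). It was found in 14.5% and 13.6% of the bleomycin barcodes. The paper lists Clu among the markers of its mesothelial cluster. Sfn reached 4.56 CPM (52 UMIs) after the single dose, against 0.917 (6 UMIs) with PBS. After repetitive doses, however, it stood at 1.66 against 0.991, where 1.02% of barcodes held a UMI in both libraries. Cldn3 stood at 1.02 and Cldn18 at 0.739 after repetitive doses, against 0.276 and 0.325. With the single dose both rested on few UMIs, and their counting intervals overlapped between PBS and bleomycin. Cldn3 had 6 UMIs in each library, at 0.917 CPM with PBS and 0.526 with bleomycin. Cldn18 had 4 UMIs with PBS and 12 with bleomycin, at 0.612 and 1.05 CPM. Of genes of other cells in the same FB barcodes, the epithelial genes did not move together. Sftpc went from 79.7 to 67.1 CPM with the single dose and from 15.6 to 50.4 with repetitive doses. Krt19 went from 0.764 to 1.67 and from 0.926 to 4.89, and the airway gene Scgb1a1 from 711 to 16.7 and from 21.7 to 34.4. Ptprc, a leukocyte gene, went from 3.98 to 11.6 and from 8.38 to 12.7. Msln, a mesothelial gene, went from 0 to 2 UMIs with the single dose and from 8 to 0 with repetitive doses. The part of these in the values of the 7 genes was not tested.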

How the results depend on the processing

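Over 12 alternatives, 114 of 120 counts of genes stayed within 1.5 times the value reported and 6 did not. Of 840 single log2 ratios, 507 stayed within the counting interval of the value reported and 331 moved out of it, and 2 reported as at least 2-fold turned round. Counting those, 23 had the opposite sign. The count of 2 genes at least 2-fold apart between conditions in Hopx-high barcodes became 0 with the top 20% for Hopx and Krt19 in place of the top 10%, and 1 with the top 5%, without the barcodes of the top 5% of UMIs, or with the mean of single-barcode values. For Hopx-high over AEC2 in the fibrogenic library, 5 became 2 with the top 20%, and for Hopx- and Krt19-high over AEC2 in the normal library 6 became 3 with the top 5%, where that class held 2 barcodes in the normal and 1 in the fibrogenic library. Cldn4 and Sfn were found together in 96.5% and 99.3% of Krt19-high barcodes, in 88.1% and 95.2% when barcodes high in both genes were included, and in 90.4% and 93.7% with thinning to 5000 UMIs. With the top 5%, the Clu ratio in the class high in both was −1.26 between conditions and −0.75 over AEC2 in the fibrogenic library, from those few barcodes. The cause of the other changes was not tested. No paired analysis was possible because each condition is 1 library, and no replicate could be left out.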

Other observations

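The sorted lung FB library after repetitive PBS held 54 epithelial barcodes, the most of the 4 lung libraries. They carried the airway secretory gene Scgb1a1 at 96183 CPM and Sftpc at 81569, so they held airway as well as AEC2 transcripts, with Cldn3 at 367, Cldn18 at 298, Cldn7 at 92.5, Sfn at 45.6 and Clu at 35.8 CPM, and Cldn4 had 0 UMIs. Lgals3 stood at 378 CPM, and Ptprc at 223.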
